A study of Homo sapiens with 8 samples.

Results

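The genes of the ATP-dependent chromatin remodeling complexes were examined in human adipose-derived stem cells (ADSCs) of the hTERT-immortalized line ASC52telo, after exposure to the histone deacetylase inhibitor SAHA. Members were chosen by a rule on gene symbols, set with earlier results of these data known. They were every measured SMARCA to SMARCE gene, ARID1 to ARID5 gene, CHD gene, INO80 gene and DPF gene, together with PBRM1, ACTL6A, ACTL6B, RUVBL1, RUVBL2, BPTF, BAZ1A, BAZ1B, BAZ2A, BAZ2B, ATRX and SS18. These were 50 of the 18508 genes with a value, and CHD2, SRCAP and EP400, which the rule also names, were not analysed here. All cells were deprived of serum for 24 h, kept for 72 h with 1000 nM SAHA dissolved in EtOH, with the EtOH vehicle or without either, and then given fresh medium for 24 h. Total RNA was read on 8 Clariom S arrays, which measure most coding genes with short probes: 3 for SAHA, 3 for untreated ADSCs and 2 for EtOH. The labels call the replicates biological but all come from 1 immortalized line, so the spread between arrays is that of cultures of this line.

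Remodeling complexes use the energy of ATP to slide, evict or exchange nucleosomes, and thereby set how open a stretch of chromatin is. The BAF and PBAF complexes are built around SMARCA4 or SMARCA2, the ISWI complexes around SMARCA5 or SMARCA1, the NuRD complex around CHD3, CHD4 or CHD5, and the INO80 complex around INO80 with the helicases RUVBL1 and RUVBL2. Several of them read acetylated histones through bromodomains, and NuRD itself carries histone deacetylases. The DNA-binding proteins ARID3A to ARID5B share a domain with ARID1A but are not remodeling subunits, and are given last.

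The values are log2 expression, with array medians from 0.26 to 0.33 over all genes. Since the zero of this scale is not known, levels are compared only within a gene. In 12 of the 50 members the mean of the control arrays lay below the highest array median, among them ARID4B, ATRX, DPF1, DPF3, SMARCA2, SMARCD3 and ACTL6B. The adipose stem cell markers THY1, NT5E, ENG, CD44, ITGB1, PDGFRB, VIM and COL1A1 lay between 3.77 and 8.63 on every array, while the blood cell markers including PTPRC and CD14 did not exceed 0.67 and the adipocyte markers, ADIPOQ among them, 0.23. The endothelial markers reached 1.22, in VWF, and the epithelial markers 2.76, in KRT8, while PECAM1, CDH5, KDR, EPCAM and CDH1 did not exceed 0.25. VWF was lower on all SAHA arrays than on all controls, by -0.48 as a log2 fold change, with an adjusted p of 0.094 (limma). The mean of every gene was the same in replicates 1, 2 and 3, to within 1e-10, so the replicate numbers had been centred before deposit. Replicate 2 has no EtOH array, and after this centring its untreated and SAHA values lie at equal distances on either side of that mean.

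SAHA was first compared with the 5 control arrays, EtOH and untreated combined, the grouping used in the study's methods. A call required a fold change of at least 1.5 and an adjusted p under 0.05 (limma, Benjamini-Hochberg over all 18508 genes). Of all genes, 81 (0.438%) were called higher and 55 (0.297%) lower. Of the 50 remodeling genes, 1 was called higher, BAZ2B, and 0 were called lower. At an unadjusted p under 0.05, 4 remodeling genes were higher (8%, against 5.82% of all genes) and 6 were lower (12%, against 9.58%). With the replicate number as a block, 1 was higher (2%, against 3.44% of all genes) and 4 were lower (8%, against 5.28%). Without the block, the higher ones were ARID1A, ARID4B, BAZ2B and INO80E, and the lower ones ACTL6A, BPTF, DPF3, SMARCA4, SMARCB1 and SMARCD2. The SAHA arrays lay above all controls in 2 members, BAZ2B and ARID4B (4%, against 4.21% of all genes), and below all controls in 3, ACTL6A, DPF3 and SMARCA4 (6%, against 6.25%). These shares lie near those of all genes. In this comparison the fit without the block counts 6 residual degrees of freedom and the blocked fit 4. Since the values were already centred by replicate number, 6 is too many. Standard errors, intervals and p-values from fits without the block thus tend to be too small.

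The log2 fold changes of the 50 members had a median of 0.02, with 28 above 0 and 22 below, beside a median of -0.03 over all genes, of which 42.4% were above 0. In 41 members the estimate was smaller than 0.3 in either direction. The 95% interval lay wholly within a 1.5-fold change in 38 members, and in 34 when the replicate number was fitted as a block. The members with wider intervals included SMARCB1, SMARCD2, SMARCA4, ACTL6A, ARID1A, BPTF, CHD8 and INO80E, whose intervals reached past a 1.5-fold change on 1 side.

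**Figure D1:**
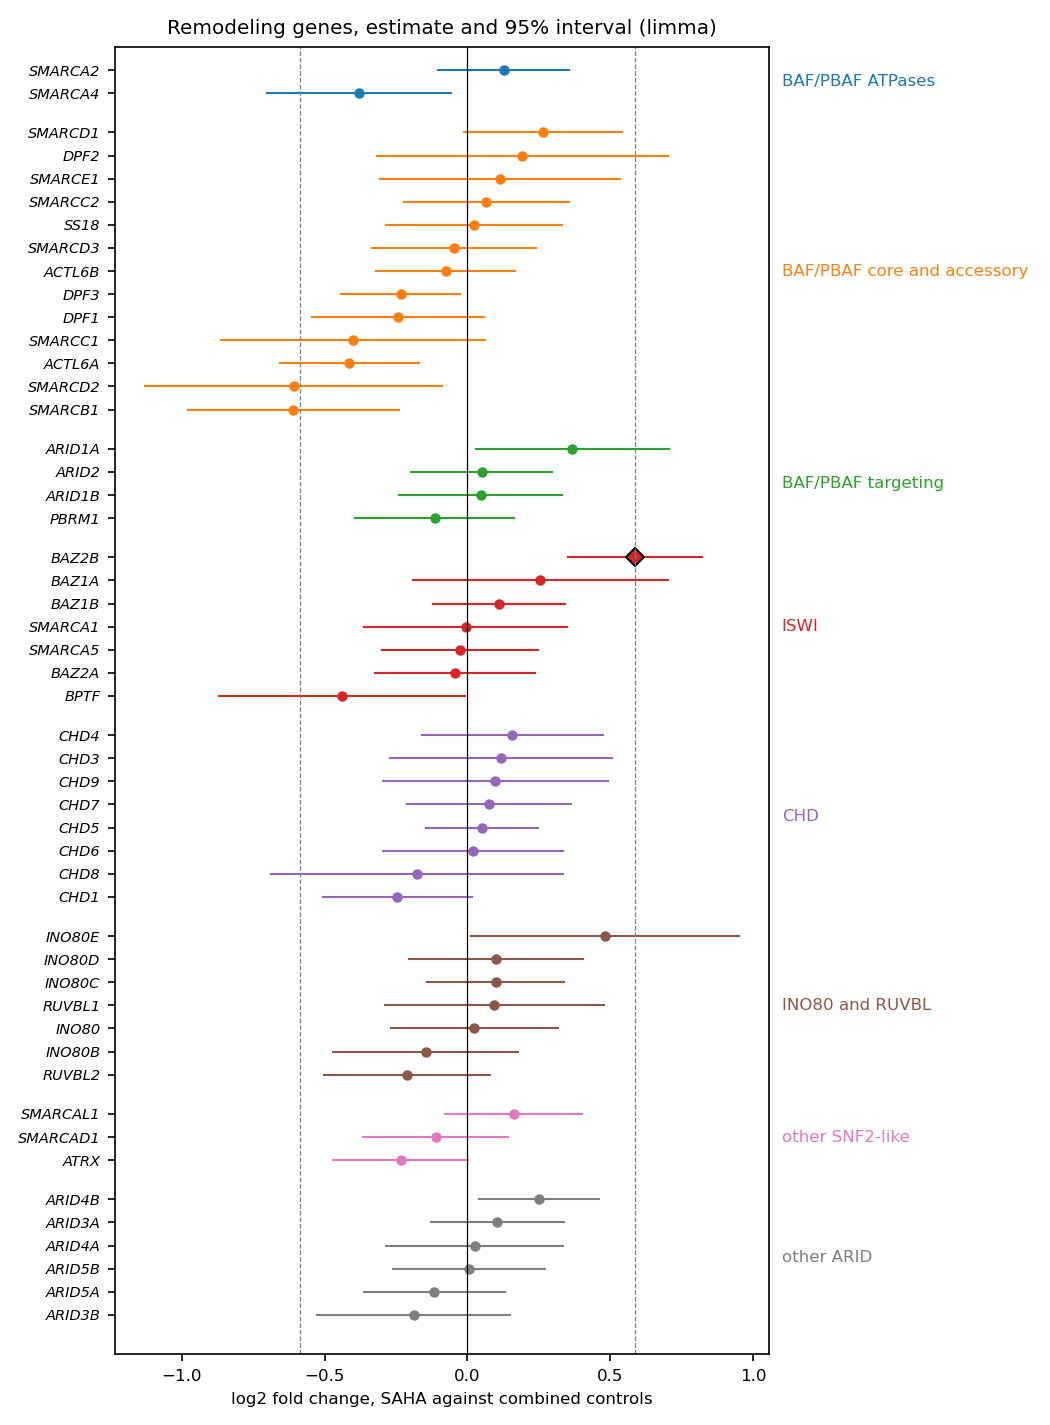
Log2 fold change of SAHA against the combined controls (x axis) for the 50 remodeling genes, grouped by complex, with 95% intervals from limma; dashed lines mark a 1.5-fold change. BAZ2B, drawn as a diamond at 0.59, is the member with an adjusted p under 0.05, and the estimates of SMARCB1 and SMARCD2, both -0.61, lie farthest to the left.

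Promoter sequences are shown for the 3 members with the smallest unadjusted p that have an entry in the table used. ACTL6A, whose unadjusted p of 0.0034 was smaller than the 0.0040 of SMARCB1 (limma), had no entry. The sequences are the 250 bases before the first listed start, from RefSeq on GRCh38.p14, written 5′ to 3′ on the strand of the gene. Capitals mark a GC box (GGGCGG or, on the other strand, CCGCCC) or a CCAAT box (CCAAT or ATTGG).
BAZ2B, chr2:159712443-159712692, minus strand: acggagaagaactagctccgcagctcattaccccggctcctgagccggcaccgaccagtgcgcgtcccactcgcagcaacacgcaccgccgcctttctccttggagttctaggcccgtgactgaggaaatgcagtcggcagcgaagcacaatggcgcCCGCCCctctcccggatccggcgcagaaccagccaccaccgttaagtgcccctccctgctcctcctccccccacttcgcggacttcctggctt
SMARCB1, chr22:23786716-23786965, plus strand: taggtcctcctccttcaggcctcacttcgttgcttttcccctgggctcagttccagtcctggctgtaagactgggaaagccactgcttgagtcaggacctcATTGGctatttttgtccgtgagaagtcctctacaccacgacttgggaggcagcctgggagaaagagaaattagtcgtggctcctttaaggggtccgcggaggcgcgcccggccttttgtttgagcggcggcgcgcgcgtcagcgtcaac
ARID4B, chr1:235327488-235327737, minus strand: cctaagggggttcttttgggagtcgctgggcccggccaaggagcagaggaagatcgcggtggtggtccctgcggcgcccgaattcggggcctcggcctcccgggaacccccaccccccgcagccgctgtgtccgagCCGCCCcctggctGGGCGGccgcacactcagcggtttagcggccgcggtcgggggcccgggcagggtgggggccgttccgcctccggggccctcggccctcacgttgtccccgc
The BAZ2B window held 1 GC box and 22 CG dinucleotides at a GC content of 65.2%. The SMARCB1 window held no GC box, 1 CCAAT box and 16 CG dinucleotides at 58.0% GC. ARID4B had 2 GC boxes and 28 CG dinucleotides at 75.6% GC. Such windows are common in the set: 38 of the 50 members had an entry, their median was 20.5 CG dinucleotides and 63.8% GC, and a GC box stood in 22 of them (57.9%). Over all 27305 promoters of the table the medians were 11 CG dinucleotides and 58.0% GC, and 42.3% held a GC box. That table lists more genes than the 18508 with a value here, so its shares also cover genes that were not measured. The CCAAT box stood in 42.1% of member promoters and 33.0% of all, and TATAAA, searched on both strands, in 5.26% and 11.1%. The letters CCGGAA, the core read by ETS factors, stood on either strand in 23.7% and 14.8%. The member promoters also had the higher GC content, and whether this accounts for their share of GC boxes was not tested. A match is a description of the letters only.

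BAZ2B, a bromodomain protein that partners ISWI ATPases, had the largest positive difference. Its log2 values were 0.80, 0.65 and 0.63 in untreated cells, 0.80 and 0.63 with EtOH, and 1.17, 1.2 and 1.51 with SAHA. Every SAHA array was above every control, and each replicate showed the same direction, by 0.36, 0.54 and 0.87. The log2 fold change was 0.59 ± 0.11 (SE), with an adjusted p of 0.035 in limma. The estimate sits at the 1.5-fold threshold, which is 0.58 on this scale. With the replicate number as a block it was 0.60, with an adjusted p of 0.18 (limma), so the call was lost. It was also lost without any one of 7 of the 8 arrays, with adjusted p from 0.052 to 0.14, and was kept without untreated replicate 1. Against EtOH alone the log2 fold change was 0.57 and against untreated alone 0.59, with adjusted p of 0.17 and 0.062 (limma).

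**Figure D2:**
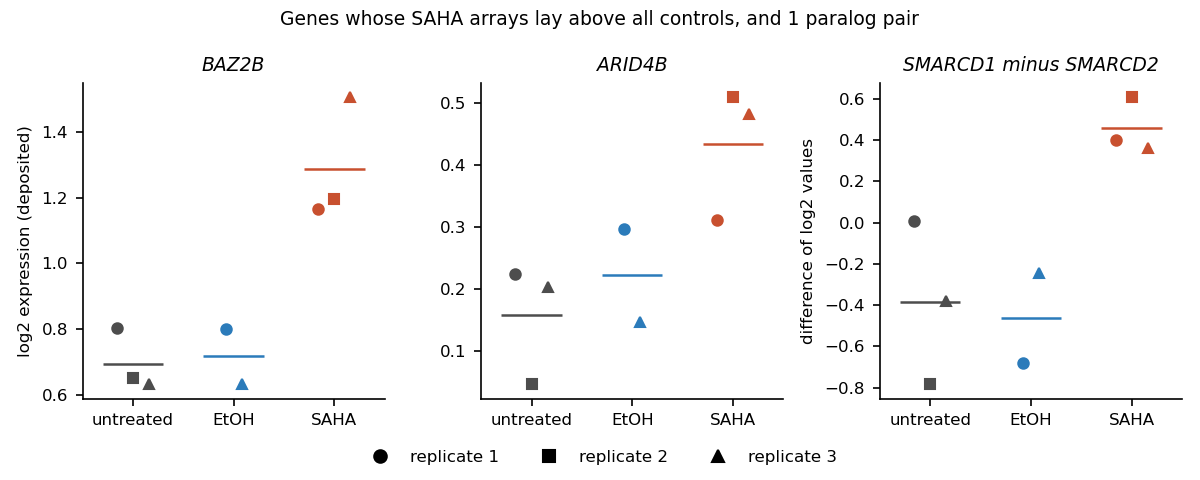
Deposited log2 expression of BAZ2B and ARID4B on each array (points, shaped by replicate; lines are group means), and the difference between the log2 values of SMARCD1 and SMARCD2 on each array. SAHA arrays of BAZ2B lie between 1.17 and 1.51 with no control above 0.80, and the SMARCD1 minus SMARCD2 difference, whose zero has no meaning, is 0.36 to 0.61 with SAHA and -0.79 to 0.01 in controls.

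The other ISWI genes gave no call. SMARCA5 and SMARCA1, the ATPases of the family, had log2 fold changes of -0.03 ± 0.12 and -0.01 ± 0.16 (SE), with 95% intervals of -0.30 to 0.25 and -0.36 to 0.35. BPTF, the bromodomain subunit of the NURF complex, was 2.17, 2.99 and 2.56 in untreated cells, 3.05 and 2.49 with EtOH, and 2.24, 1.99 and 2.41 with SAHA. Untreated replicate 1 lay among the SAHA values, so the groups overlapped. The log2 fold change of BPTF was -0.44 ± 0.19, with an adjusted p of 0.31 in limma. BAZ1A, a partner of SMARCA5 in the ACF and CHRAC complexes, had a log2 fold change of 0.25 ± 0.20. Its SAHA arrays were 0.50, 0.71 and 1.24, a wider span than the shift itself. BAZ1B, of the WICH complex, and BAZ2A, of the nucleolar remodeling complex, had log2 fold changes of 0.11 and -0.04.

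Among the BAF and PBAF genes 0 were called in limma. At an unadjusted p under 0.05, 1 of the 4 targeting genes was higher (ARID1A, 25%, against 5.82% of all genes). Lower were 4 of the 13 core and accessory genes (30.8%, against 9.58%) and 1 of the 2 ATPases, SMARCA4 (50%). With the replicate block ARID1A and DPF3 no longer passed this threshold. These groups are small and were not tested as sets. SMARCB1, a core subunit of both complexes, was 1.54, 2.31 and 1.93 in untreated cells, 2.27 and 2.10 with EtOH, and 1.59, 1.30 and 1.37 with SAHA. SAHA replicate 1 lay just above untreated replicate 1, and the other SAHA arrays lay below all controls. The log2 fold change was -0.61 ± 0.17 (SE), with an adjusted p of 0.12 in limma. Without untreated replicate 1 the value was -0.73 and passed, with an adjusted p of 0.035, and with array weights it was -0.72 with an adjusted p of 0.043 (limma). In the fit as reported SMARCB1 was not called, and with the replicate block its adjusted p was 0.32 (limma).

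SMARCD2, an accessory subunit, was 1.74, 2.74 and 2.0 in untreated cells, 2.72 and 2.17 with EtOH, and 1.68, 1.35 and 1.97 with SAHA. SAHA replicate 3 exceeded untreated replicate 1, and the control values spread over a full unit. The log2 fold change of SMARCD2 was -0.61 ± 0.24, with an adjusted p of 0.25 (limma). ACTL6A, an actin-related subunit shared by the BAF, INO80 and TIP60 complexes, was 0.70, 0.84 and 0.76 in untreated cells, 0.65 and 0.42 with EtOH, and 0.21, 0.20 and 0.38 with SAHA. Every SAHA array of ACTL6A was below every control, the nearest being SAHA replicate 3 and EtOH replicate 3. Its log2 fold change of -0.41 ± 0.11 had an adjusted p of 0.11 in limma.

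The ATPases of BAF and PBAF differed in the sign of their estimates. SMARCA4 was 1.26, 1.83 and 1.42 in untreated cells, 1.53 and 1.34 with EtOH, and 1.21, 0.84 and 1.25 with SAHA. The groups did not overlap, but the highest SAHA and lowest control arrays were nearly level. The log2 fold change of SMARCA4 was -0.38 ± 0.15, with an adjusted p of 0.25 (limma), and SMARCA2, the alternative ATPase, had 0.13 ± 0.10. SMARCA2 was 0.25, 0.17 and 0.10 in untreated cells, 0.34 and 0.47 with EtOH, and 0.35, 0.46 and 0.37 with SAHA, so that SAHA and EtOH arrays overlapped and untreated arrays were lower.

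**Figure D3:**
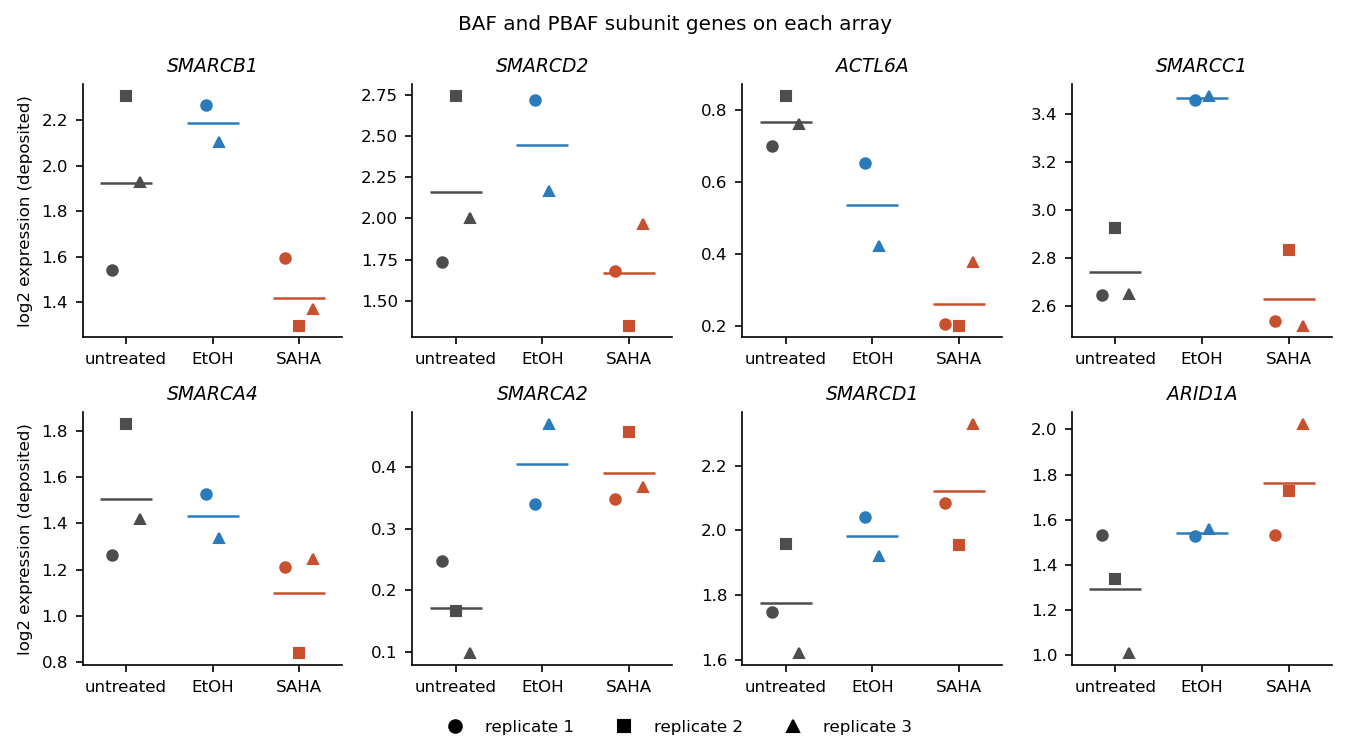
Deposited log2 expression of 8 BAF and PBAF subunit genes on each array (points, shaped by replicate; lines are group means; each panel has its own vertical axis, which does not start at 0). In SMARCB1, SMARCD2 and SMARCA4 the widest gap between untreated and SAHA arrays is in replicate 2 (squares), and in SMARCC1 the EtOH arrays, at 3.46 and 3.47, stand above the other 6.

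SMARCC1, a scaffold subunit, had a pattern set by the control group. It was 2.64, 2.93 and 2.65 in untreated cells, 3.46 and 3.47 with EtOH, and 2.54, 2.83 and 2.52 with SAHA. Both EtOH arrays stood above all others, and SAHA and untreated arrays overlapped. Against the combined controls the log2 fold change was -0.40 ± 0.21, with an adjusted p of 0.40 (limma). SMARCC2, the other scaffold subunit, had 0.07 ± 0.13.

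The remaining core and accessory subunits gave no call. SMARCD1 had a log2 fold change of 0.27 ± 0.12 (SE), SMARCE1 0.11 ± 0.19 and SS18 0.02, and none of them passed the test. SMARCE1 differed from its own controls by 0.39, -0.64 and 0.41 in the 3 replicates. SMARCD3, the muscle-enriched member of its family, had -0.05, and ACTL6B, the neuronal counterpart of ACTL6A, had -0.08, both from values around 0. DPF3, a histone-reading subunit, had a highest SAHA array of 0.14 and a lowest control array of 0.16. Its log2 fold change was -0.23 ± 0.09, with an adjusted p of 0.27 in limma. DPF1, its neuronal relative, had -0.24 ± 0.14 with overlapping groups.

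The subunits that steer BAF and PBAF to their targets had estimates of 0.37 for ARID1A, 0.05 for ARID1B, 0.05 for ARID2 and -0.11 for PBRM1. ARID1A, a subunit of the canonical BAF complex, was 1.53, 1.34 and 1.01 in untreated cells, 1.53 and 1.56 with EtOH, and 1.53, 1.73 and 2.02 with SAHA. SAHA replicate 1 was level with its own controls, and the difference came from replicates 2 and 3, at 0.39 and 0.74. The adjusted p for ARID1A was 0.28 in limma.

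Of the 13 core and accessory BAF and PBAF genes, 5 had positive and 8 negative estimates, with a median of -0.08. Of the 4 targeting genes, 3 were positive, with a median of 0.05. Of the 7 ISWI genes, 3 were positive, with a median of -0.01. Of the 8 CHD genes, 6 were positive, with a median of 0.06, and of the 7 INO80 and RUVBL genes, 5 were positive, with a median of 0.09.

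No CHD gene was called, and the family's estimates ran from -0.25 to 0.16. CHD4 and CHD3, the NuRD ATPases, had log2 fold changes of 0.16 ± 0.14 and 0.12 ± 0.18 (SE), with 95% intervals of -0.16 to 0.47 and -0.27 to 0.51. CHD5, a NuRD ATPase known mainly from neurons, had 0.05, from values below 0 on every array. CHD1, which binds methylated histone H3 at active genes, had the most negative estimate of the family, -0.25 ± 0.12, with an adjusted p of 0.36 (limma). CHD8 had -0.18 ± 0.23, and its arrays ran from 1.37 to 2.36 in controls and from 1.11 to 1.91 with SAHA. In replicate 2 CHD8 differed from its control by -1.26 and CHD1 by -0.67. CHD6, CHD7 and CHD9 had 0.02, 0.08 and 0.10, and CHD9 differed by 0.85 in replicate 2.

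In the INO80 complex, the ATPase INO80 had a log2 fold change of 0.02 ± 0.13. The helicases RUVBL1 and RUVBL2, which assemble several complexes, had 0.09 ± 0.17 and -0.21 ± 0.13. INO80E, an accessory subunit, was 1.53, 1.44 and 0.99 in untreated cells, 0.81 and 1.74 with EtOH, and 2.11, 1.52 and 1.72 with SAHA. SAHA replicate 2 of INO80E lay below 2 of the 5 controls, and the EtOH arrays alone differed by more than the shift between groups. Its log2 fold change was 0.48 ± 0.21, with an adjusted p of 0.31 in limma. INO80B, INO80C and INO80D had -0.15, 0.10 and 0.10.

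The SNF2-like genes outside these complexes were SMARCAL1, which remodels stalled replication forks, at 0.16 ± 0.11, SMARCAD1 at -0.11 ± 0.11, and ATRX, a histone H3.3 loading factor, at -0.23 ± 0.11. ATRX was 0.43, 0.36 and 0.23 in untreated cells, 0.10 and 0.46 with EtOH, and 0.16, 0.10 and -0.01 with SAHA. EtOH replicate 1 of ATRX lay among the SAHA values. Of the 6 other ARID genes, 4 had positive estimates. ARID4B, a subunit of a SIN3 corepressor complex, was 0.22, 0.05 and 0.20 in untreated cells, 0.30 and 0.15 with EtOH, and 0.31, 0.51 and 0.48 with SAHA. SAHA replicate 1 cleared EtOH replicate 1 by a small margin, and the log2 fold change of ARID4B was 0.25 ± 0.09, with an adjusted p of 0.24 (limma). The mean of the ARID4B control arrays, 0.18, lay below every array median. ARID5B, a regulator of adipocyte formation, was measured between 5.51 and 5.97 on all arrays and had 0.01 ± 0.12. ARID3A, ARID3B, ARID4A and ARID5A had estimates from -0.19 to 0.11.

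The 3 replicates did not contribute alike. In replicate 2, where 1 untreated array is the only control, 9 members lay at least 1.5-fold below it with SAHA, against 0 members in replicate 1 and 1 in replicate 3. Over all genes these shares were 6.27%, 6.81% and 2.44%. At least 1.5-fold above their own controls lay 1 member in replicate 1, INO80E, 2 in replicate 2, CHD9 and RUVBL1, and 4 in replicate 3, BAZ2B, BAZ1A, DPF2 and ARID1A, beside 3.43%, 3.98% and 3.77% of all genes. The 9 that were lower in replicate 2 were SMARCD2, CHD8, SMARCB1, SMARCA4, BPTF, RUVBL2, CHD1, ACTL6A and SMARCE1, with differences in log2 values from -1.40 for SMARCD2 to -0.64 for SMARCE1. SMARCB1 was the member that also passed this size in replicate 3, at -0.65, and in replicate 1 it differed by -0.31. SMARCD2 differed by -0.55 in replicate 1 and -0.12 in replicate 3, BPTF by -0.37 and -0.12, and SMARCA4 by -0.18 and -0.13. CHD8 was higher with SAHA in these replicates, by 0.27 and 0.17. Without SAHA replicate 2 the log2 fold changes were -0.55 for SMARCB1, -0.45 for SMARCD2, -0.33 for BPTF and -0.25 for SMARCA4. ACTL6A kept -0.38. Untreated replicate 2, which mirrors that array after the centring, stayed in these fits, so the influence of replicate 2 was only partly removed. In all 3 replicates, 10 members were below their own controls (20%, against 17.8% of all genes) and 5 above (10%, against 10.7%), namely BAZ2B, INO80E, ARID1A, ARID4B and SMARCA2.

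SAHA was then compared with each control group in a limma fit with 3 groups, since the vehicle is its matched control. Against EtOH, 0 members were called (0.103% of all genes were), and 9 had an unadjusted p under 0.05 (18%, against 12.9% of all genes). Against untreated cells, 0 were called (0.789% of all genes were), and 12 had an unadjusted p under 0.05 (24%, against 16.5%). EtOH and untreated cells themselves differed in 0 members (0% of all genes were called), with 8 at an unadjusted p under 0.05 (16%, against 9.75%). The 3 comparisons share arrays in pairs, so their values are given side by side and not as independent results.

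SMARCC1 had the smallest adjusted p against EtOH, 0.088 (limma), with a log2 fold change of -0.84 ± 0.14 (SE). Against untreated cells it was -0.11, and EtOH stood 0.73 ± 0.14 above untreated, with an adjusted p of 0.42 in limma. DPF2, a reader of acetylated histone H3 in BAF, showed the mirror of this. It was 3.26, 3.10 and 3.21 in untreated cells, 2.84 and 2.26 with EtOH, and 2.92, 2.91 and 3.55 with SAHA. Both EtOH arrays were the lowest, so that the log2 fold change of DPF2 was 0.57 ± 0.22 against EtOH and -0.06 against untreated. SMARCA1 was 2.75, 2.61 and 2.74 in untreated cells, 3.10 and 3.23 with EtOH, and 2.80, 3.15 and 2.68 with SAHA. Its EtOH group stood 0.46 above untreated, and its log2 fold change was -0.28 against EtOH and 0.18 against untreated. For these genes the combined control averages arrays that lie apart, and the vehicle rests on 2 arrays.

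Other members had estimates of 1 sign against either group. BAZ2B is described above. SMARCB1 had -0.77 against EtOH and -0.51 against untreated, with adjusted p of 0.20 and 0.21 (limma). ACTL6A had -0.28 and -0.51, with adjusted p of 0.38 and 0.068 (limma). SMARCA4 had -0.33 and -0.41, SMARCD2 -0.78 and -0.50, and BPTF -0.56 and -0.36.

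**Figure D4:**
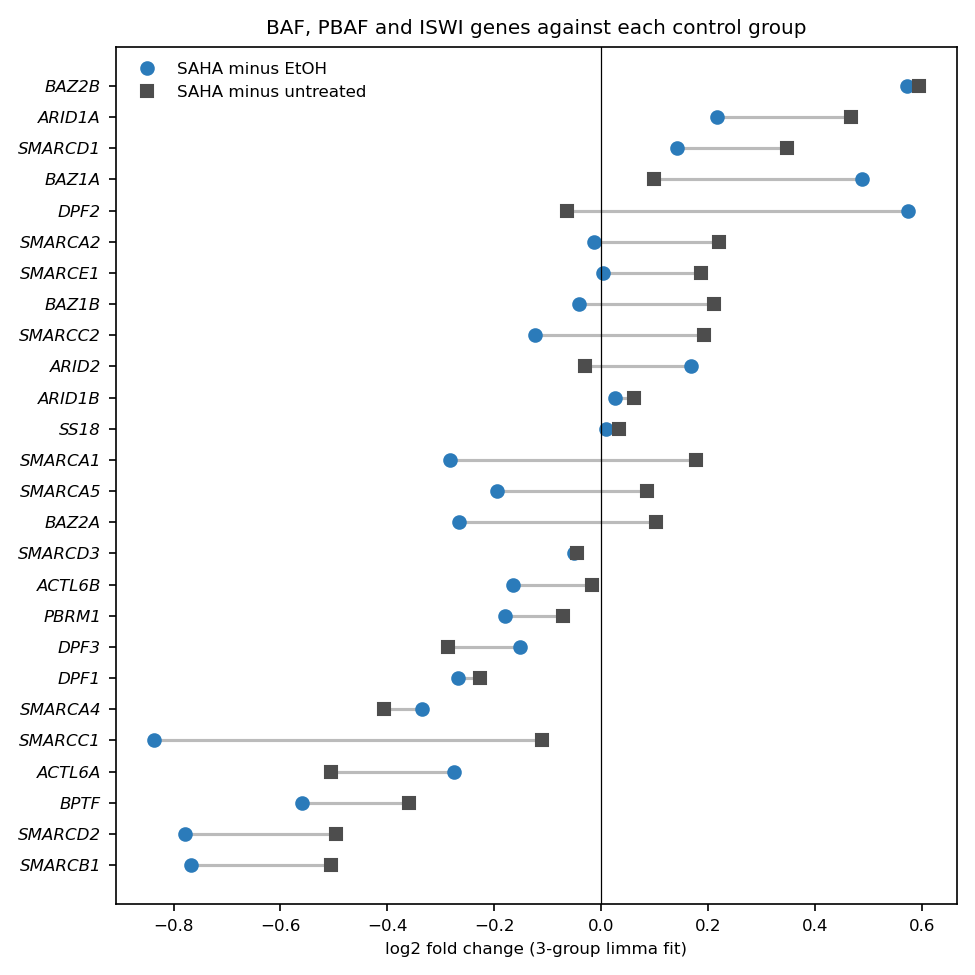
Log2 fold change of SAHA against EtOH (circles) and against untreated cells (squares) for the 26 BAF, PBAF and ISWI genes, from the 3-group limma fit, in the order of the estimate against the combined controls. The longest line is that of SMARCC1, from -0.84 to -0.11, with DPF2 from 0.57 to -0.06 next, while the BAZ2B symbols, at 0.57 and 0.59, nearly coincide.

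Paralogs that take the same place in a complex were compared by the difference of their log2 values on each array. The 11 pairs were set with the arrays' values known. SMARCD1 and SMARCD2 had the largest shift of the 11, their difference being 0.87 higher with SAHA than in controls. All 3 SAHA arrays, at 0.36 to 0.61, were above all 5 controls, at -0.79 to 0.01. SMARCD2 against SMARCD3 shifted by -0.56, SMARCA4 against SMARCA2 by -0.50 and SMARCC2 against SMARCC1 by 0.47. DPF2 shifted by 0.43 against DPF1 and by 0.42 against DPF3. ACTL6A against ACTL6B shifted by -0.34, ARID1A against ARID1B by 0.32 and SMARCD1 against SMARCD3 by 0.31. SMARCA5 against SMARCA1 and DPF1 against DPF3 shifted by -0.02 and -0.01. In all pairs but SMARCD1 and SMARCD2 the groups overlapped. In an exact two-sided permutation test that exchanged SAHA only within replicate numbers, SMARCD1 against SMARCD2 had p = 0.0556, the smallest that its 18 arrangements allow. Free exchange over 56 arrangements, which sets the centring aside, gave an exact p of 0.0179, also the smallest possible, and 0.196 after adjustment over the pairs. Neither form could bring a single pair past 0.05 after adjustment, so the tests do not decide whether the pairs shifted.

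Partners of these complexes that the rule leaves out gave 0 calls in limma among 56 measured genes of 62 listed, with 1 higher (1.79%, against 5.82% of all genes) and 7 lower (12.5%, against 9.58%) at an unadjusted p under 0.05. Their estimates were negative in 38 (67.9%, against 57.6% of all genes), with a median of -0.06 beside -0.03 over all genes. The 11 measured NuRD partners had 9 negative estimates and a median of -0.20, and the 20 partners of the INO80, SRCAP and TIP60 complexes had 15 and -0.10. The 10 BAF and PBAF partners were evenly split, with a median of -0.01. The 5 ISWI partners measured had a median near 0, and the 10 other SNF2 family ATPases had -0.05. UCHL5, a deubiquitinase of the INO80 complex and the proteasome, had the largest change among the partners, -0.57 ± 0.12 (SE), with an adjusted p of 0.062 in limma (0.024 with array weights). BRD8, a bromodomain subunit of TIP60, had -0.51 ± 0.21 with an adjusted p of 0.29.

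Most markers of dividing cells had negative estimates on the same arrays. Of 16 proliferation genes, 14 had negative estimates (87.5%, against 57.6% of all genes), with a median of -0.37. The median was -0.15 against EtOH and -0.53 against untreated cells. The positive estimates were those of PCNA, 0.28 ± 0.17 (SE), and MCM3, 0.10 ± 0.15, while MCM2 and CDK1 were both at -0.04. Of the 16, 2 were called lower (0.297% of all genes were), TOP2A at -0.74 ± 0.12 and CENPF at -0.77 ± 0.13 (adjusted p of 0.019 and 0.024, limma). With the replicate block both calls were lost, at adjusted p of 0.083 and 0.089 (limma). Their part in the estimates of SMARCB1, SMARCD2, ACTL6A and SMARCA4 was not tested. RNA level from a whole culture does not tell fewer expressing cells from less RNA per cell.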

How the data were processed

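RNA of 8 cultures was read on Clariom S arrays. The authors deposited log2 values, 1 per gene and array, and their methods name RMA through oligo as the normalization. The deposited values ran from -0.83 to 9.96, and whether RMA alone set this scale is not known. A further EtOH array was removed by them because it was dim, and where probe sets shared a gene they averaged its fold changes. A centring of the replicate numbers, seen in the values, is not given in the sources used here. No detection p-value was used, so background is not known, and the number of arrays limits the precision. Every column of values was assigned to a sample by its label.

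The deposited log2 values entered limma 3.58.1 (R 4.3.3) as they are, unfiltered. A model with moderated variances set SAHA against the combined control arrays, and a 3-group model gave the other contrasts. P-values were adjusted by Benjamini-Hochberg over 18508 genes. Errors are standard errors from limma. The fits were also run on simulated data centred in the same way, where only the recovered size of a change was checked. The rate of false calls and the p-values were not checked.

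Members and gene lists were chosen with earlier results of these data known. Named with values were called members, the 8 largest positive and 8 largest negative estimates, every ATPase, the paralog families and the 2 partners with the largest change. ARID2, PBRM1, SMARCE1, SS18, the other BAZ, INO80 and ARID genes and the proliferation markers were named beside these to complete their groups.

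Groups share replicate numbers, whose labels also carry 6, 10 and 16 after a p that is not spelled out. The centring leaves no correlation by which pairing could be checked. The fit with the number as a replicate block is given where it changes a call. Alternatives were quantile normalization, median centring, leaving out dim genes, an intensity trend, robust variances, array weights, the block, each array left out, equal weight for EtOH and untreated, the t-test of the methods' statistics section and a 1.2-fold threshold. For the paralog pairs, the scalings, the left-out arrays and exchange within replicate numbers were added after seeing the data.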

Additional observations from a re-analysis of the deposited data

Results flagged for a closer look

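Among the 5 control arrays, 3 of the 50 remodeling genes (6%) had 1 array far from the others. In these genes its gap to the nearest control was 0.73 to 0.81 of the range of the controls. A chance rate of about 1 in 20 genes would assume independent values from 1 group. The controls join EtOH and untreated arrays centred by replicate number, so that rate may not hold here. The share of all genes was not given, and whether 3 genes exceed chance was not tested. SMARCAL1 was 1.35 in EtOH replicate 3, against a mean of 1.07 in the other controls. SMARCAD1 was 0.97 in the same array, against 0.63. ARID3A, a DNA-binding protein, was 1.18 in untreated replicate 3, against 1.47.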

How the results depend on the processing

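The count of called members against the combined controls, 1 (BAZ2B), became 0 with an intensity trend, with the replicate block, with equal weight for EtOH and untreated and by the methods' t-test, and 2 with array weights (BAZ2B and SMARCB1). Without 1 array it ran from 0 to 2, the 2 being without untreated replicate 1. Values were not centred anew when an array was left out, so arrays with its replicate number still carried part of it. Against untreated cells the count of 0 became 1 (BAZ2B) with quantile normalization and with median centring. The calls against EtOH and between EtOH and untreated remained 0 under every alternative run. The member median of 0.02 was 0.065 with quantile normalization, 0.066 with median centring and -0.010 with array weights, and ran from -0.026 (untreated replicate 3) to 0.034 (EtOH replicate 3) without 1 array. Over all genes, 81 higher and 55 lower calls became 36 and 14 with the replicate block, 121 and 112 with array weights, 5 and 4 by the t-test, 67 and 35 with an intensity trend, 99 and 85 at 1.2-fold and 99 and 37 with each array centred on its median. Without 1 array they ran from 20 to 80 higher and from 10 to 61 lower, the lowest without SAHA replicate 3.

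Estimates near 0 changed sign. With array weights ARID1B was -0.071, CHD6 -0.0031, INO80 -0.018 and SMARCA1 0.11. SMARCA1 was 0.023 and SMARCA5 0.036 with quantile normalization, and with median centring 0.036 and 0.016. Without 1 array, the log2 fold changes ran from -0.052 to 0.17 for ARID1B, -0.014 to 0.22 for CHD3, -0.11 to 0.15 for CHD6, -0.32 to 0.081 for CHD8, -0.085 to 0.23 for CHD9, -0.020 to 0.30 for DPF2, -0.12 to 0.11 for INO80, -0.053 to 0.30 for RUVBL1, -0.14 to 0.092 for SMARCA1, -0.10 to 0.037 for SMARCA5, -0.0053 to 0.15 for SMARCC2 and -0.14 to 0.067 for SMARCD3. The SMARCA5 minus SMARCA1 shift was 0.013 with quantile normalization and ran from -0.14 to 0.15 without 1 array, and that of DPF1 minus DPF3 from -0.11 to 0.062. Over the 38 named genes, 601 of the values kept direction and side of the threshold, 27 changed sign, 11 lost a call and 3 gained a call. All 11 lost calls were those of BAZ2B, which kept its call in 6 of 17 alternatives. The causes were not tested. Groups of 2 or 3 arrays and the unknown background limit small changes, above all in the 12 members below the highest array median, and 1 cell line, dose and time were measured.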
